A study of Mus musculus with 21 samples.

Results

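The collagen genes are followed here through mouse epidermis in which the transcription factors AP-2α (gene Tfap2a) and AP-2β (gene Tfap2b) were targeted in keratinocytes. Members are the protein-coding genes whose symbol has the form Col, a type number, a and a chain number, with Col17a1, the hemidesmosome collagen of keratinocytes, left out. This name rule gave 43 members among 49315 genes counted, of which 21811 were protein-coding. The samples were labelled epidermis, and total RNA was sequenced after depletion of ribosomal RNA. Of 21 deposited files, 13 hold 0 for every gene, so 8 libraries could be used. They are 3 double knockouts at 6 months of age (K14CreTfap2afl/flTfap2bfl/fl), 3 control-strain specific libraries at 6 months (genotype WT), and replicates 1 and 2 of the Tfap2b knockout at 3 weeks (K14CreTfap2bfl/fl). In the knockouts, floxed alleles of the named genes are cut by Cre under the keratin 14 promoter, which is active in basal keratinocytes, so fibroblasts, vessels and fat are not its target. No library of the 3-week controls had counts, and the 3-week libraries enter no test.

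Collagens are proteins of the extracellular matrix whose chains wind into a triple helix. Fibroblasts of the dermis make most of the fibril-forming types, while basal keratinocytes themselves make several collagens of the basement membrane and of the anchoring fibrils that tie it to the dermis. Others coat fibrils (the FACIT collagens), form beaded filaments, carry heparan sulphate chains or span the cell membrane. An epidermal sheet separated from the skin can therefore hold collagen RNA of its own cells and of dermal cells that came off with it.

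Many collagen genes sit beside another member, and the start region of one such pair is shown because both genes are read away from it in opposite directions. Col4a1 and Col4a2, which encode the chains of the common basement membrane network, lie head to head on chromosome 8, and their RefSeq start sites are 21 bases apart. The first exons share the 22 bases between the start sites (RefSeq, GRCm38.p6, + strand), in which the capitals mark a GC box (GGGCGG), the motif of Sp1:
Col4a1 and Col4a2 (chr8:11312805-11312826): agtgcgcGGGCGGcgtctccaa
Col4a4 and Col4a3 lie head to head with a gap of 72 bases, and Col4a6 and Col4a5 with one of 1309 bases. For 34 of the 43 members the RefSeq table held the region before a start site, giving 37 windows of 250 bases. The AP-2 motif, searched as GCCNNNGGC, was found in 6 of the 37 collagen windows (16.2%) and in 13.7% of all 32851 windows of that length. Genes with a match were Col4a1, Col4a2, Col5a1, Col6a5, Col9a1 and Col16a1. The GC box GGGCGG was found in 22 collagen windows (59.5%, against 32.7% of all windows), CCAAT in 12 (32.4%, against 33.8%) and TATAAA in 4 (10.8%, against 12.4%). Both strands were searched. Col3a1 and Col4a6 were called lower at 6 months, though Col4a6 lost the call in several alternative fits. Col7a1 had the highest median level per length in the 7 libraries other than Tfap2b cKO replicate 1. Col16a1 has the AP-2 motif and was well detected. The 4 windows below are of these genes, on which the results turn. Each is printed 5′ to 3′ on the gene's strand up to the base before the RefSeq start, and capitals mark matches to the 4 motifs on either strand (ATTGG is CCAAT read on the other strand):
Col3a1 (chr1:45311288-45311537, + strand): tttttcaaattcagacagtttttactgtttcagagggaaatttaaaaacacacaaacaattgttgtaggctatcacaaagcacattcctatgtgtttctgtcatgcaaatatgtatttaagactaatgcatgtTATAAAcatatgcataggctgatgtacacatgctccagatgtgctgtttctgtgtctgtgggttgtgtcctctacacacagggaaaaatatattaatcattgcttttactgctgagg
Col4a6 (chrX:141474077-141474326, - strand): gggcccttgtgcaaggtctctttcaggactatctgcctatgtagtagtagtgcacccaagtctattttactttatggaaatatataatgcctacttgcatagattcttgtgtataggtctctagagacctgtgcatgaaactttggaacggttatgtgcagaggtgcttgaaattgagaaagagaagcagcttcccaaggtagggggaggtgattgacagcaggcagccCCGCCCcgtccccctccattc
Col7a1 (chr9:108953336-108953585, + strand): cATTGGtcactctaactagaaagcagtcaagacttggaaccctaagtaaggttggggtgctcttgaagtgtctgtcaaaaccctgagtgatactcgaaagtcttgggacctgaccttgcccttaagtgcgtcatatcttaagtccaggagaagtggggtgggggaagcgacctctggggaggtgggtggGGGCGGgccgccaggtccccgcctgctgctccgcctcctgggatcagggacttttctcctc
Col16a1 (chr4:130047590-130047839, + strand): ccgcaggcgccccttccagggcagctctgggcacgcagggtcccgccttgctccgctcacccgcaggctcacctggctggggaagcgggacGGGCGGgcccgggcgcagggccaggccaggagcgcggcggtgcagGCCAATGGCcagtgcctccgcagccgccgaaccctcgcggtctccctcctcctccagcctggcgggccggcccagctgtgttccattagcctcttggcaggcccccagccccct
In Col16a1 the AP-2 match GCCAATGGC starts 114 bases before the start site and contains a CCAAT, so both motifs share those letters. A match describes the letters of the window only.

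Library totals ran from 11318181 to 17746284 counts. Control replicates 1 and 2 stood apart from the rest, with 35794 and 39362 genes counted at least once, against 23454 to 25537 in the other 6 libraries. Their counts on 1418 odorant and vomeronasal receptor genes, used here as a measure of background, were 1.61 and 3.19 per kb of exon, against 0.097 to 0.195 elsewhere. The 6-month calls are therefore given without both as well. Counts of the targeted genes did not show their loss: Tfap2b was at 57.3, 86.6 and 71.0 CPM (counts scaled to a library of 1000000 counts on genes) in the controls, at 53.8, 57.2 and 56.9 in the double cKO libraries, and at 44.9 and 71.7 in the Tfap2b cKO libraries. Tfap2a was at 165, 140 and 210 CPM in the controls and at 229, 213 and 309 in the double cKO libraries. The labels do not name the deleted exons, so a gene count need not show the deletion, and each group below is called by its label alone. The epidermal label was matched by its markers, as 6 keratinocyte genes summed to between 10590 and 20290 CPM in every library.

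Levels were first compared in the libraries other than Tfap2b cKO replicate 1. On the RPKM scale (counts per kb of exon as a share of the library, used where genes are compared with each other), the medians over these 7 libraries put Col7a1, the anchoring fibril collagen, first at 17.9. Col23a1, a membrane-spanning collagen, followed at 14.9, then Col16a1, a FACIT collagen, at 8.99 and Col18a1, the heparan sulphate collagen of basement membranes, at 8.75. Next came Col4a6 at 5.88 and Col4a5 at 5.22, whose chains assemble together in the epidermal basement membrane. Ranges overlapped between neighbours of this order: Col7a1 covered 6.22 to 20.9 and Col23a1 6.36 to 22.3 RPKM. Col23a1 was above Col7a1 in control replicates 1 (14.9 against 6.22) and 2 (6.85 against 6.61) and in double cKO replicate 1 (22.3 against 17.9). All 43 collagens together made up 0.0540% to 0.0784% of the counts in each of the 7 libraries.

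At least 1 CPM in every library was reached by 22 collagens, which are called retained. In the first Tfap2b cKO library, 13 collagens had at least 1 CPM and at least 3 times the CPM of every other library, and 9 of these were among the retained. These thresholds use the measured values, so the sets are a description. The 13 were Col1a1, Col1a2, Col3a1, Col5a1, Col5a2, Col5a3, Col4a1, Col4a2, Col6a1, Col6a2, Col6a3, Col14a1 and Col15a1. Just inside the threshold, Col14a1 was at 3.06 times its next highest library (20.3 against 6.63 CPM). The nearest gene outside, Col12a1, was at 1.23 times (74.9 against 61.0 CPM). No collagen lay between those ratios. The remaining 17 collagens met neither rule.

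The 13 retained collagens that were not raised in that library are Col4a3, Col4a4, Col4a5, Col4a6, Col7a1, Col10a1, Col11a2, Col12a1, Col16a1, Col18a1, Col20a1, Col23a1 and Col27a1. Together they summed to 688 and 650 CPM in Tfap2b cKO replicates 1 and 2. At 6 months they summed to 383, 408 and 530 CPM in the controls and to 663, 634 and 680 CPM in the double cKO libraries, so the 2 groups did not overlap. Of the 13, 6 had a log2 change above 0 and 7 below 0.

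**Figure D1:**
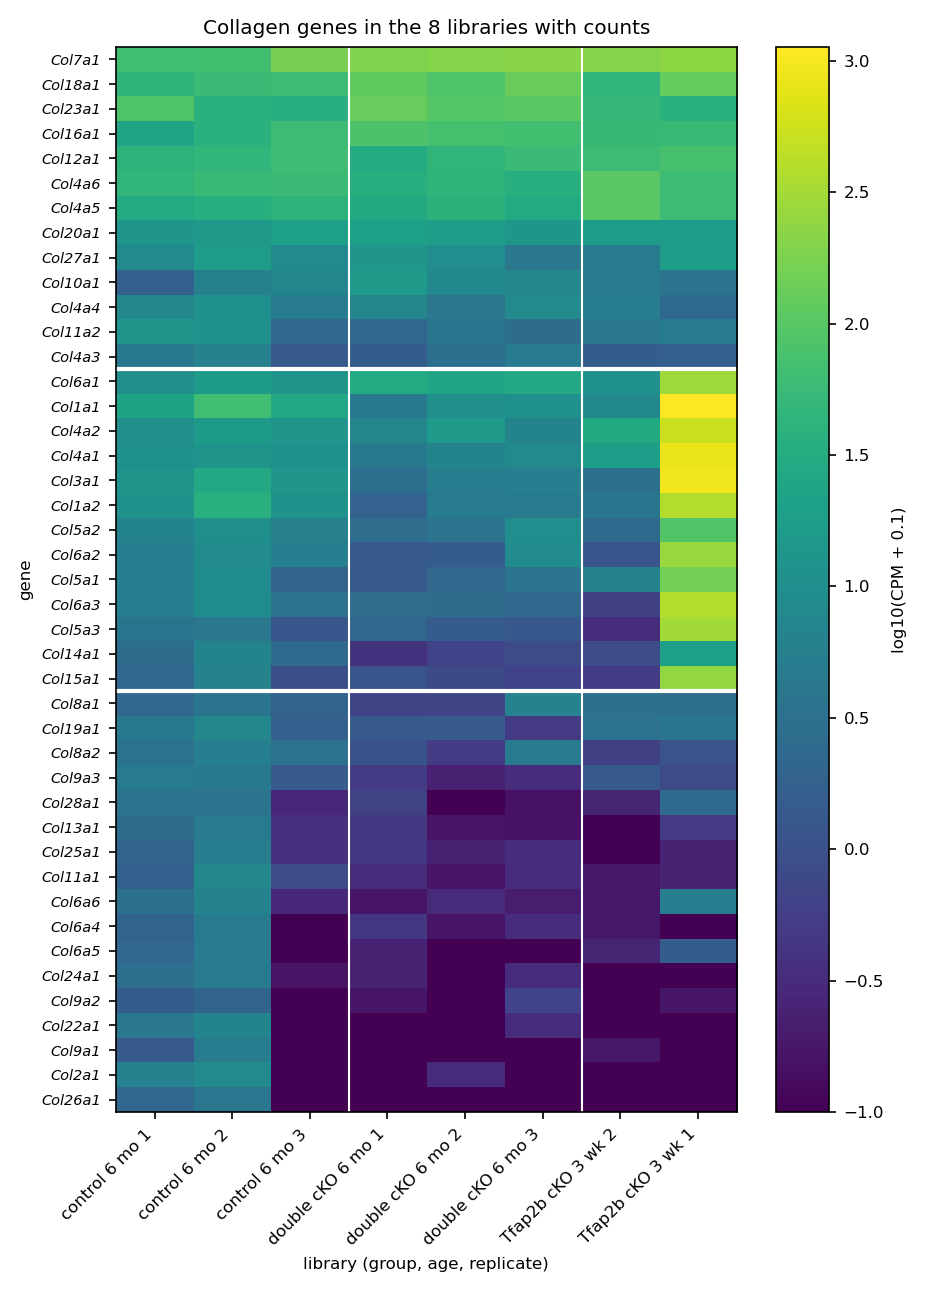
CPM of each of the 43 collagen genes (rows) in the 8 libraries (columns), coloured as log10(CPM + 0.1). White lines part the rows into the 13 retained collagens that were not raised in Tfap2b cKO replicate 1, the 13 that were, and the other 17, which are mostly visible in control replicates 1 and 2 alone.

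Both Tfap2b cKO libraries at 3 weeks carry one label, and their fibrillar, type VI and type IV α1 and α2 collagens differed widely. Col1a1 and Col1a2, the chains of type I collagen, the main fibril of dermis, were at 1128 and 389 CPM in replicate 1 and at 7.67 and 3.68 CPM in replicate 2. Col3a1, the fibril that runs with type I in skin and vessels, was at 912 and 3.04 CPM. Col5a1, Col5a2 and Col5a3, the type V chains that help start fibrils, were at 159, 90.7 and 308 CPM in replicate 1 and at 5.83, 2.32 and 0.240 CPM in replicate 2. Those fibrillar genes were 27.3 to 1283 times higher in replicate 1.

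Type VI collagen forms beaded filaments around cells, and its chains Col6a1, Col6a2 and Col6a3 were at 292, 265 and 391 CPM in replicate 1. In replicate 2 they were at 10.7, 1.12 and 0.480 CPM, so that the ratio was 27.3 for Col6a1 and 816 for Col6a3. Col4a1 and Col4a2, whose shared start region is printed above, were at 863 and 539 CPM in replicate 1 against 18.7 and 29.0 CPM. Col15a1, a multiplexin of vessel and muscle basement membranes, was at 246 against 0.400 CPM, and Col14a1, a FACIT collagen of dermal fibrils, at 20.3 against 0.799 CPM.

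The retained collagens outside that set differed less between these libraries. Col7a1 was at 230 and 201 CPM in replicates 1 and 2, Col16a1 at 53.4 and 51.5, Col20a1 at 16.4 and 16.5, and Col12a1 at 74.9 and 59.1. Col18a1 was 2.69 times higher in replicate 1 (126 and 46.7 CPM), and Col27a1 was at 18.5 and 4.80 CPM. Others were lower there, as Col4a5 was at 59.0 and 102 CPM, Col4a6 at 59.5 and 102, and Col23a1 at 39.3 and 50.2. Col4a4 (2.31 and 5.28 CPM), Col10a1 (3.47 and 4.56 CPM) and Col11a2 (4.47 and 4.0 CPM) were low in both. Collagen counts were 0.631% of that library, Col1a1 alone was 17.9% of them and Col7a1 3.64%, against 27.1% for Col7a1 in replicate 2.

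**Figure D2:**
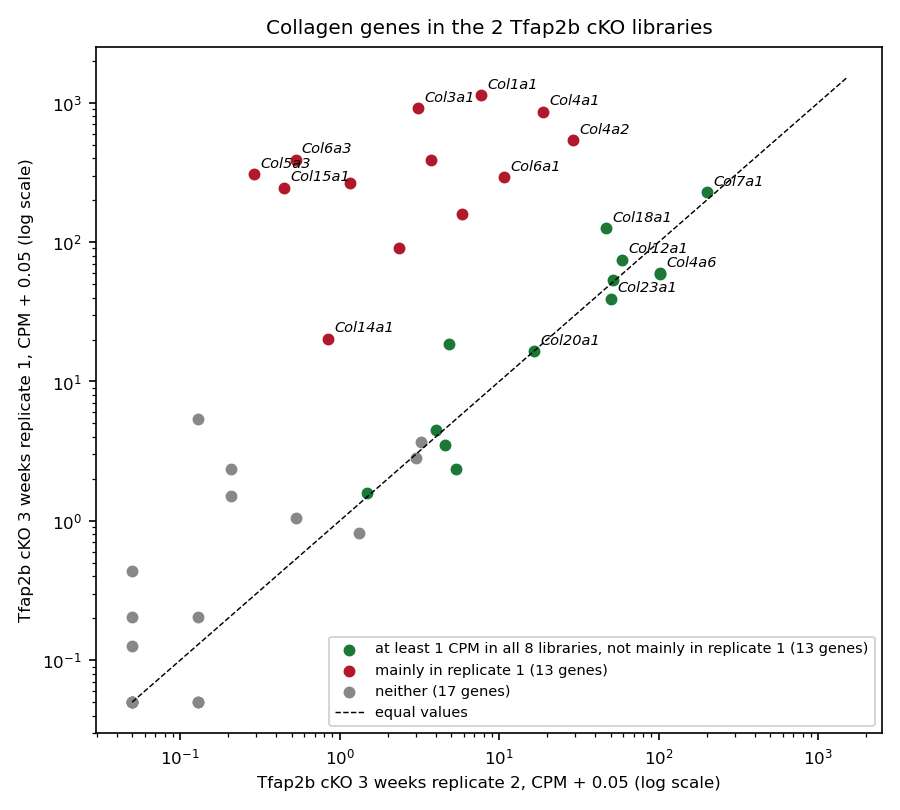
CPM of each collagen gene in Tfap2b cKO 3-week replicate 2 (x) and replicate 1 (y), with 0.05 CPM added, on log axes. Points are single genes, the line marks equal CPM, and colours mark the sets defined in the text. The 13 red points, at 20.3 CPM or more in replicate 1, lie well above the line, while Col7a1, Col16a1 and Col20a1 lie near the line.

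Fibroblast, endothelial, pericyte and adipocyte markers were higher where these collagens were higher, while several other marker lists were not. In replicates 1 and 2, the 10 dermal fibroblast genes summed to 244 and 33.1 CPM, the 6 endothelial genes to 443 and 5.99, the 6 pericyte and smooth muscle genes to 285 and 17.4, and the 5 adipocyte genes to 2212 and 0.560 CPM. In replicate 1 none of these genes was at 0. In replicate 2, 3 of the 10 fibroblast genes, 4 of the 6 endothelial, 2 of the 6 pericyte and 2 of the 5 adipocyte genes were at 0. Within the fibroblast list Dpp4 went the other way, at 5.71 and 7.35 CPM. Dermal papilla genes summed to 6.17 and 6.79 CPM, Schwann cell genes to 167 and 178, cartilage genes to 0.925 and 1.52 and melanocyte genes to 12.3 and 15.1 CPM, all lower in replicate 1. Hair follicle genes were lower too (960 and 1167 CPM), and skeletal muscle genes were higher (20.4 and 3.20 CPM). Epidermal markers summed to 11780 and 12610 CPM and immune markers to 517 and 491 CPM. The part of these cells in the collagen difference was not tested.

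**Figure D3:**
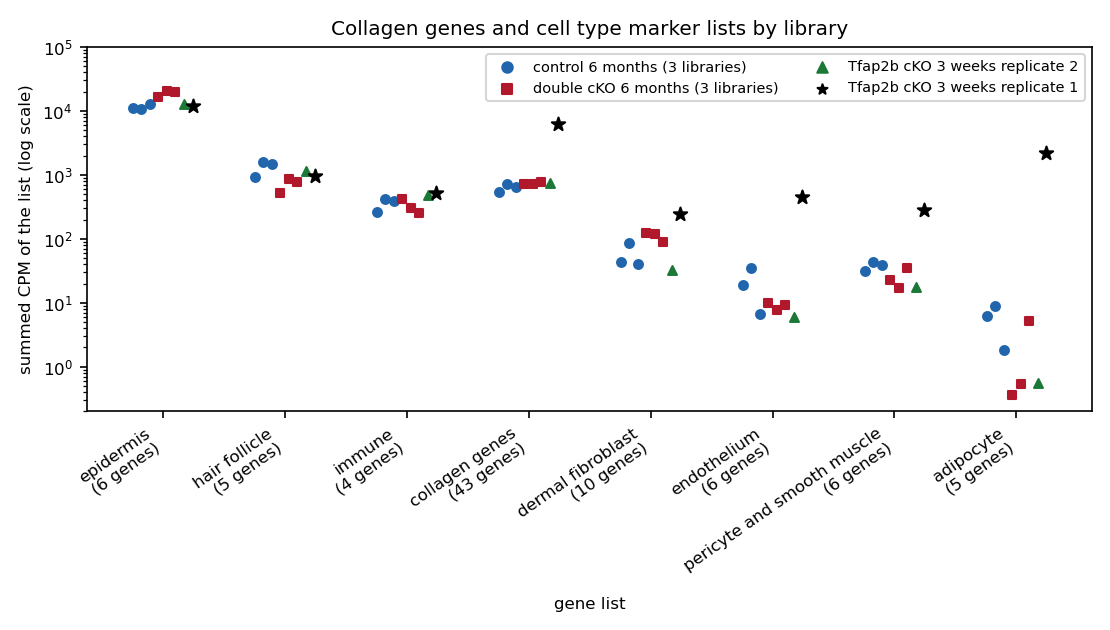
Summed CPM (log axis) of 7 marker lists and of all 43 collagens in each of the 8 libraries, 1 point per library. The star, Tfap2b cKO replicate 1, is the highest point of the collagens (6310 CPM) and of the fibroblast (244), endothelial (443), pericyte (285) and adipocyte (2212) lists. For the immune list it is highest by little (517, against at most 491), and for epidermis it lies within the other libraries.

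At 6 months the double cKO libraries held less Col1a1, Col1a2 and Col3a1 RNA, of the main dermal fibrils, and more Col6a1 and Col18a1 RNA than the controls. Of the 43 collagens, 31 passed the filter on low counts and were tested. By edgeR's quasi-likelihood test at an adjusted p under 0.05, 7 were lower (Col1a1, Col1a2, Col3a1, Col4a6, Col9a3, Col11a1 and Col14a1) and 2 higher (Col6a1 and Col18a1). That is 29.0% of the collagens tested, where 14.9% of all 17755 genes tested passed. By direction, 22.6% of the collagens were lower against 8.59% of all genes, and 6.45% were higher against 6.26%. Col9a3, Col11a1 and Col14a1 passed the filter through their control counts, so a call of higher was hardly open to them. With at least 10 counts required in every 6-month library, those 3 were not tested. Then 5 of 25 collagens were lower, now with Col4a1, and 2 higher, against 1448 and 1051 of 14492 genes. The median log2 change was −0.58 over the 31 collagens and −0.04 over all genes tested. In 16 of the 31 (51.6%), the 3 libraries of one group lay all above the other 3, 10 of them lower and 6 higher in double cKO, against 38.7% of all genes. With whole sheets sequenced, fewer cells of a type and less RNA per cell cannot be told apart. A fit that also held both Tfap2b cKO libraries called 2 of these 9 collagens, Col9a3 and Col11a1. Without control replicates 1 and 2, edgeR called none of the 9, and 437 genes in all instead of 2637. Of the 9, 8 then had an unadjusted p under 0.05 in edgeR and in limma-voom, which called none either, and DESeq2 called 3. That fit has 1 control library and takes its spread from the double cKO group. Without control replicate 3, the controls left are the 2 with high receptor-gene counts, and 7544 of 21030 genes and 26 of 43 collagens passed. Collagens given below as passing without control replicate 3 are to be read beside that share.

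**Figure D4:**
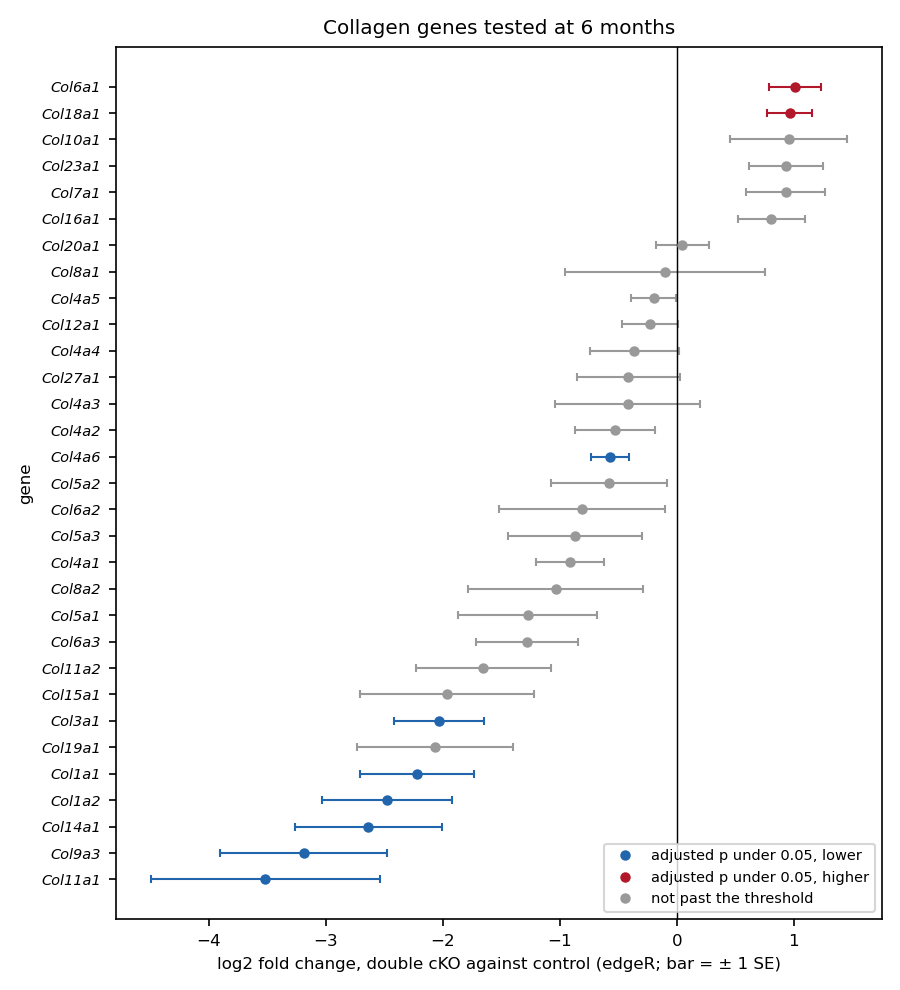
Log2 fold change (double cKO over control at 6 months, edgeR) of the 31 collagens tested, in order of the value, with bars of 1 SE to each side. Blue and red points passed an adjusted p of 0.05. Of the 31 values, 24 are below 0, down to −3.52 for Col11a1, and Col6a1, Col7a1, Col16a1, Col18a1 and Col23a1 lie between 0.81 and 1.01.

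Of 11 fibril-forming collagens 9 were tested, all 9 had a log2 change below 0 in double cKO, and 4 passed the test. Of all genes tested, 52.2% were below 0 and 8.59% were called lower. Against control replicate 3 alone, Col5a1 (0.22), Col5a3 (0.44) and Col11a2 (0.25) were above 0, and Col27a1 was at 0.01 without control replicate 2. Col1a1 (chromosome 11, 94936224 to 94953042, GRCm38) was at 22.7, 64.9 and 26.9 CPM in the controls and at 4.27, 10.2 and 10.9 CPM in the double cKO libraries. Control replicate 2 was the highest, and the groups did not overlap. The log2 change was −2.22 (SE 0.49, adjusted p = 0.0222 by edgeR). Col1a2 (chromosome 6, 4504814 to 4541544) was at 11.5, 37.4 and 12 CPM in the controls and at 1.81, 4.77 and 4.45 CPM in double cKO. Here too control replicate 2 led, and the log2 change was −2.48 (SE 0.56, adjusted p = 0.0223 by edgeR). Col3a1 (chromosome 1, 45311538 to 45349706) was at 12.5, 27.6 and 13.0 CPM against 2.82, 5.05 and 5.35 CPM, again without overlap. Its log2 change was −2.03 (SE 0.38, adjusted p = 0.0101 by edgeR). Without control replicates 1 and 2 these 3 genes stood at −1.70 (Col1a1, adjusted p = 0.143 by edgeR), −1.72 (Col1a2, 0.127) and −1.58 (Col3a1, 0.0909). The calls of Col1a1 and Col1a2 also ended when any 1 double cKO library was left out, at log2 changes of −1.87 to −2.41 for Col1a1 (edgeR adjusted p 0.0515 to 0.0737) and −2.12 to −2.65 for Col1a2 (0.0614 to 0.0713).

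The type V chains gave no call. Col5a1 was at 5.23, 9.37 and 1.89 CPM in the controls and at 1.30, 2.05 and 3.49 CPM in double cKO (log2 change −1.28, adjusted p = 0.158 by edgeR), and passed at −1.60 without control replicate 3 (0.0236). Col5a2 was at 6.73, 10.4 and 5.66 CPM against 2.68, 3.34 and 9.75 CPM (−0.58, 0.445), and Col5a3 at 3.65, 3.98 and 1.11 CPM against 2.25, 1.43 and 1.18 CPM (−0.87, 0.294). In each of the 3 the groups overlapped. Type XI chains, which form thin fibrils of cartilage, were scarce. Col11a1 (chromosome 3, 114030540 to 114220718) was counted 21, 84 and 12 times in the controls but 3, 1 and 4 times in double cKO. Most of the control signal was in replicate 2, and the level expected from the receptor genes was 20.5, 40.6 and 1.88 counts there. Its log2 change of −3.52 (SE 0.98, adjusted p = 0.0199 by edgeR) was −2.24 without control replicate 2 (0.0906), −3.58 and −3.26 without double cKO replicate 1 or 2 (0.0820 and 0.0769), and −1.64 without control replicates 1 and 2 (0.382). The call also ended with the receptor-gene background subtracted after the filter (−3.11, adjusted p = 0.0878 by edgeR) and by limma-voom (−3.47, 0.135). Col11a2 was at 12.8, 11.2 and 2.28 CPM against 2.17, 3.68 and 2.65 CPM, with control replicate 3 inside the double cKO range (adjusted p = 0.0762 by edgeR). Without that replicate it passed at −2.02 (adjusted p = 0.00349 by edgeR). Col27a1, a fibrillar collagen of cartilage, was at 8.14, 17.0 and 8.46 CPM against 13.0, 9.54 and 4.0 CPM (adjusted p = 0.542 by edgeR), with overlapping groups.

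All 6 chains of the basement membrane network were tested and 1 passed. Col4a6 (X chromosome, 141165403 to 141474076) was at 46.8, 55.1 and 57.8 CPM in the controls and at 34.8, 43.0 and 35.2 CPM in double cKO. Groups did not overlap, but the gap was small, from 43.0 to 46.8 CPM. The log2 change was −0.57 (SE 0.16, adjusted p = 0.0404 by edgeR). Col4a6 did not pass by DESeq2 (−0.53, adjusted p = 0.0528). In edgeR it did not pass by total counts (−0.51, 0.0584) or with no filter on low counts (−0.46, 0.137). Nor did it with the replicate block (−0.575, 0.0619) or with all 8 libraries (−0.57, 0.107). Leaving out any 1 library except control replicate 1 ended this call, with log2 changes of −0.43 to −0.64 (edgeR adjusted p 0.0782 to 0.187), and without control replicates 1 and 2 it was −0.67 (0.123). Its partner Col4a5 was at 31.1, 35.1 and 41.1 CPM against 28.4, 40.6 and 29.4 CPM, and these groups overlapped (−0.20, adjusted p = 0.511 by edgeR). Col4a1 was at 10.8, 12.6 and 11.8 CPM in the controls and at 4.27, 6.75 and 8.34 CPM in double cKO, without overlap. This difference did not pass (log2 change −0.92, SE 0.29, adjusted p = 0.0558 by edgeR). Col4a2, its head-to-head neighbour, was at 10.1, 16.2 and 13.0 CPM against 6.88, 14.9 and 6.71 CPM, where double cKO replicate 2 lay inside the control range (−0.53, adjusted p = 0.313 by edgeR). Col4a4, of the network best known from kidney, was at 7.39, 10.8 and 4.82 CPM against 6.81, 3.89 and 7.95 CPM, and its groups overlapped.

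Col7a1, the anchoring fibril collagen, was higher in double cKO than in control replicates 1 and 2 but close to replicate 3. It was at 64.0, 68.0 and 168 CPM in the controls and at 184, 201 and 214 CPM in double cKO. The lowest double cKO value was just above the highest control. Its log2 change of 0.93 (SE 0.34, adjusted p = 0.101 by edgeR) did not pass, was 0.20 against control replicate 3 alone, and passed at 1.60 (adjusted p = 0.000496 by edgeR) without control replicate 3.

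Of the beaded filament class, 3 of 6 chains were tested and Col6a1 passed. Col6a1 (chromosome 10, 76708792 to 76726168) was at 9.80, 16.0 and 12.4 CPM in the controls and at 30.1, 23.4 and 28.0 CPM in double cKO. All double cKO libraries were above all controls. It rose by 1.01 on the log2 scale (SE 0.22, adjusted p = 0.0179 by edgeR). Without double cKO replicate 1 the value was 0.98 (0.0781) and without control replicates 1 and 2 it was 1.06 (0.0763). Col6a3 was at 5.4, 9.28 and 3.19 CPM against 2.75, 2.59 and 2.14 CPM, which did not overlap and did not pass (−1.28, SE 0.43, adjusted p = 0.0662 by edgeR), though it did without control replicate 3 (−1.5, 0.0116). Col6a2 was at 5.48, 8.84 and 5.60 CPM against 1.23, 1.43 and 8.90 CPM. Double cKO replicate 3 exceeded every control, and the log2 change was −0.81 (adjusted p = 0.452 by edgeR). Without that library it passed at −2.23 (adjusted p = 0.0164 by edgeR). The ratio of Col6a1 to Col6a3 in counts per kb was 4.96, 4.71 and 10.7 in the controls and 29.8, 24.7 and 35.7 in double cKO. It was 2.04 in Tfap2b cKO replicate 1, where dermal markers were highest, and 61.0 in replicate 2. Ratios of Col1a1 to Col1a2 stayed between 3.29 and 5.5 in all 8 libraries.

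**Figure D5:**
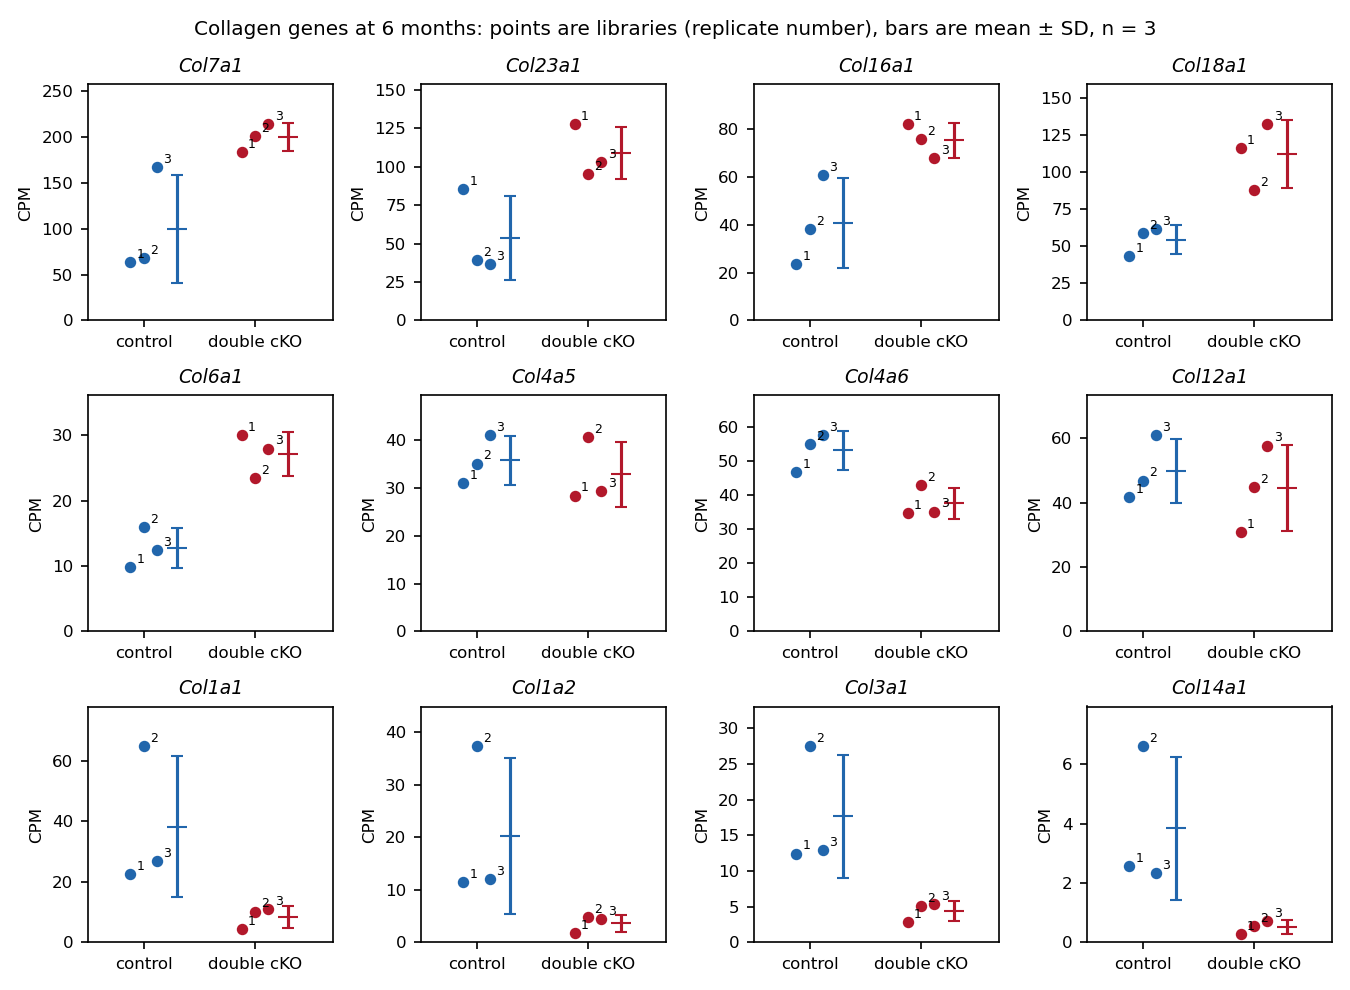
CPM (linear axes from 0) of 12 collagens in the 3 control and 3 double cKO libraries at 6 months. Points are libraries with their replicate number, and bars give the mean and SD of each group (n = 3). Control replicate 2 holds the highest Col1a1, Col1a2 and Col3a1 points (64.9, 37.4 and 27.6 CPM), and control replicate 3 the highest control point of Col7a1 and Col16a1.

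Col18a1, whose product carries heparan sulphate in basement membranes, was the second collagen that rose. It lies on chromosome 10 (77052178 to 77166548) and was at 43.1, 58.6 and 61.5 CPM in the controls and at 116, 87.5 and 132 CPM in double cKO, without overlap. Its log2 change was 0.97 (SE 0.19, adjusted p = 0.0122 by edgeR). It was 0.99 without double cKO replicate 1 (0.0579) and 0.81 without control replicates 1 and 2 (0.146). Its relative Col15a1 was at 2.24, 6.45 and 0.846 CPM against 1.01, 0.682 and 0.564 CPM, with overlap through control replicate 3 (adjusted p = 0.0764 by edgeR), without which it passed at −2.32 (0.00948). Col23a1, which spans the membrane, was at 85.5, 39.3 and 36.5 CPM in the controls and at 128, 95.5 and 103 CPM in double cKO. The groups did not overlap, and control replicate 1 was the nearest to double cKO. Its log2 change of 0.93 (SE 0.32, adjusted p = 0.0800 by edgeR) did not pass. Without control replicate 1 it passed at 1.45 (adjusted p = 0.00394 by edgeR), and against control replicate 3 alone at 1.52 (0.0209).

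Among the FACIT collagens, 6 of 9 were tested and 2 were lower. Col14a1 (chromosome 15, 55307750 to 55520803) was at 2.57, 6.63 and 2.34 CPM in the controls and at 0.290, 0.545 and 0.733 CPM in double cKO, without overlap. Its log2 change was −2.64 (SE 0.63, adjusted p = 0.0159 by edgeR). It was −2.03 without control replicate 2 (0.0680), −2.37 and −2.62 without double cKO replicate 1 or 2 (0.0815 and 0.0639), and −1.96 without control replicates 1 and 2 (0.166). Col9a3, a cartilage FACIT chain (chromosome 2, 180597790 to 180622189), was counted 55, 48 and 21 times in the controls but 6, 2 and 4 times in double cKO, so all controls were higher. Its log2 change was −3.19 (SE 0.71, adjusted p = 0.0103 by edgeR) and −1.98 without control replicates 1 and 2 (0.251), and limma-voom gave −3.46 (adjusted p = 0.0516). Exons of Col9a3 share 234 bases (6.07%) with Tcfl5 on the other strand, and whether counting used strand is not stated in the sources used here. Col16a1, which keratinocytes and fibroblasts make, was at 23.5, 38.3 and 60.7 CPM against 82.2, 75.9 and 67.8 CPM. All double cKO libraries were higher, but the difference did not pass (0.81, SE 0.28, adjusted p = 0.0846 by edgeR). It passed at 1.29 without control replicate 3 (adjusted p = 0.00386 by edgeR). Col12a1, a coat of dermal fibrils, was at 41.6, 46.8 and 61.0 CPM against 30.9, 44.9 and 57.7 CPM (−0.23, adjusted p = 0.532 by edgeR). Col20a1 was at 12.7, 15.2 and 19.5 CPM against 20.3, 17.9 and 13.6 CPM (0.05, adjusted p = 0.904 by edgeR). Groups overlapped in both.

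Col10a1, the network collagen known from hypertrophic cartilage, was at 1.66, 6.01 and 7.10 CPM in the controls and at 15.6, 7.64 and 7.44 CPM in double cKO (0.96, SE 0.50, adjusted p = 0.213 by edgeR). The 3 tested members not yet given, Col4a3, Col8a1 and Col8a2, had overlapping groups and did not pass, and Col19a1 (4.24, 7.51 and 1.63 CPM against 1.30, 1.36 and 0.394 CPM) did not overlap and narrowly missed (−2.07, SE 0.66, adjusted p = 0.0505 by edgeR). Col19a1 passed at −2.38 without control replicate 3 (adjusted p = 0.00762 by edgeR), and Col8a2 at −2.37 without double cKO replicate 3 (0.0407). The 12 untested members were Col2a1, Col6a4, Col6a5, Col6a6, Col9a1, Col9a2, Col13a1, Col22a1, Col24a1, Col25a1, Col26a1 and Col28a1. Together they had 394 and 664 counts in control replicates 1 and 2 but 15 in replicate 3 and 28, 10 and 30 in double cKO. In replicates 1 and 2 every one of the 12 had at least 15 counts, and the receptor-gene level over the same exons was 143 and 283 counts. In Tfap2b cKO replicate 1 they had 126 counts, 69 of them from Col6a6.

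Of the listed marker genes of all cell types, 47 were tested at 6 months, 5 were called higher and 3 lower. Over all 17755 genes tested, 6.26% were called higher and 8.59% lower. The 3 lower were Lgr5, Egr2 and Acta1, named here after their values were seen. Lgr5, a hair follicle stem cell gene, was at 18.1, 39.4 and 19.1 CPM in the controls and at 0.942, 1.02 and 4.0 CPM in double cKO (−3.63, SE 0.60, adjusted p = 0.00785 by edgeR). Egr2, from the Schwann cell list, was at 152, 108 and 80.7 CPM against 60.8, 48.4 and 48.3 CPM (−1.19, SE 0.23, adjusted p = 0.0115 by edgeR). Acta1, skeletal muscle actin, was at 2.33, 1.06 and 2.74 CPM against 0.362, 0.682 and 0.282 CPM (−1.98, SE 0.66, adjusted p = 0.0445 by edgeR). Without control replicates 1 and 2 they stood at −3.21 (Lgr5, adjusted p = 0.127 by edgeR), −0.68 (Egr2, 0.108) and −2.38 (Acta1, 0.106), so none passed. The call of Acta1 also ended when any 1 library was left out (−1.66 to −2.28, edgeR adjusted p 0.0519 to 0.183) and by DESeq2 and limma-voom (0.0687 and 0.0665). Acta1 passed the filter through its control counts, so a call of higher was hardly open to it. Sums of 5 lists were lower in double cKO without overlap. Hair follicle genes were at 934 to 1566 CPM in the controls against 523 to 874, Schwann cell genes at 210 to 274 against 131 to 180, dermal papilla genes at 7.49 to 19.97 against 3.77 to 6.55, skeletal muscle genes at 5.14 to 14.5 against 1.59 to 3.0, and cartilage genes at 1.37 to 11.5 against 0.341 to 0.620 CPM.

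Members of the dermal fibroblast list differed among themselves at 6 months. Dcn, the fibril-binding proteoglycan decorin, was at 2.08, 16.8 and 2.15 CPM in the controls and at 1.30, 0.614 and 0.845 CPM in double cKO. These did not overlap and narrowly missed the threshold (log2 change −2.82, SE 0.87, adjusted p = 0.0509 by edgeR). Lum and Dpt, other fibril-binding genes of fibroblasts, were also lower without overlap and did not pass (−2.10 and −1.48, edgeR adjusted p 0.0648 and 0.121). Twist2 was at 0 in all 3 double cKO libraries and at 0.166, 0.884 and 0.0651 CPM in the controls. Thy1 rose from 17.3, 31.5 and 21.1 CPM to 103, 89.7 and 56.9 CPM (1.75, SE 0.27, adjusted p = 0.00494 by edgeR), and Fbln1, fibulin-1, by 1.35 (adjusted p = 0.0226 by edgeR). Thy1 is also made outside fibroblasts. Of the 10 dermal fibroblast genes 7 were tested, 2 rose and none fell by edgeR, although 4 were lower at an unadjusted p under 0.05 and DESeq2 called 1 lower. The tested genes had a median log2 change of −1.40, while the list's sum went up, from 43.9, 86.6 and 40.2 CPM to 125, 121 and 90.4 CPM. Without Thy1 the sum overlapped, at 26.7, 55.1 and 19.1 CPM for controls against 22.3, 31.2 and 33.6 CPM. Against control replicate 3 alone Thy1 was at 1.91 (adjusted p = 0.0626 by edgeR) and Fbln1 at 1.54 (0.139), neither past the threshold, and Fbln1 also lost its call without control replicate 1 or double cKO replicate 2 or 3 (1.11 to 1.38, 0.0642 to 0.0748). Endothelial genes summed to 18.9, 35 and 6.77 CPM against 9.99, 7.64 and 9.13 CPM, and adipocyte genes to 6.23, 8.75 and 1.82 against 0.362, 0.545 and 5.24 CPM. Keratinocyte genes summed to 11050, 10590 and 12990 CPM in the controls and to 16400, 20290 and 19660 in double cKO. Krt14, the basal keratin, rose by 1.71 (SE 0.19, adjusted p = 0.000969 by edgeR), and by 1.44 against control replicate 3 alone. Krt5 and Krt1 rose by 0.90 and 1.05 (edgeR adjusted p 0.0086 and 0.0081). The other members of the list did not pass, with Krt10 at 0.04 and Ivl at 0.05. Lor was lower without overlap, at 742, 319 and 307 CPM against 101, 275 and 219 CPM (−1.275, adjusted p = 0.131 by edgeR). The part of these cell types in the collagen differences was not tested.

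Genes that make, bind and cut collagen were listed from textbook roles, and 57 of 62 were tested: 5 were lower (8.77%, against 8.59% of all genes) and 10 higher (17.5%, against 6.26%). With at least 10 counts required in every 6-month library, 4 of 44 were lower and 9 higher, against 1448 and 1051 of 14492 genes. Of the processing enzymes and chaperones, 26 of 27 were tested, 4 rose and 1 fell. The lysyl hydroxylases Plod1 and Plod3 and their partner P3h4 rose together. Plod3 was at 20.01, 18.9 and 20.8 CPM in the controls and at 38.2, 35.1 and 42.5 CPM in double cKO (log2 change 0.87, SE 0.17, adjusted p = 0.0100 by edgeR). P3h4 was at 23.1, 26.2 and 20.5 against 36.3, 45.7 and 45.5 CPM (0.79, adjusted p = 0.0204 by edgeR), and Plod1 at 14, 14.1 and 21 against 24.2, 33.9 and 36.7 CPM (0.87, adjusted p = 0.0360 by edgeR). None of these 3 overlapped between groups. Tll1, a procollagen C-proteinase, was at 1.91, 6.54 and 1.24 against 42.5, 21.2 and 9.58 CPM (2.81, adjusted p = 0.0468 by edgeR). The prolyl hydroxylase P3h1, named here after its values were seen, was at 6.23, 6.01 and 3.65 against 1.81, 1.91 and 2.03 CPM (−1.47, adjusted p = 0.0273 by edgeR).

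Of the lysyl oxidases, which cross-link fibrils, 4 of 5 were tested and Lox fell from 2.82, 5.30 and 1.37 CPM to 0.724, 0.409 and 0.789 CPM (−2.14, adjusted p = 0.0353 by edgeR). Lox passed the filter through its control counts, so a call of higher was hardly open to it. Loxl4 (−0.16), Loxl3 (−1.50) and Loxl2 (−1.38) did not pass. All 9 collagen receptors and uptake genes were tested. Itga1, the α chain of the type IV collagen integrin, fell from 10.6, 11.4 and 8.46 CPM to 3.33, 2.73 and 4.45 CPM (−1.56, SE 0.30, adjusted p = 0.0101 by edgeR). Mrc2, the uptake receptor Endo180, rose from 5.65, 5.57 and 6.19 CPM to 19.8, 23.0 and 12.4 CPM (1.57, SE 0.27, adjusted p = 0.00609 by edgeR). Itgb1, the shared β chain, rose by 0.53 (adjusted p = 0.0440 by edgeR), and Ddr1, the discoidin receptor of epithelia, was at 0.14 and did not pass.

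Collagen-cutting enzymes were higher where they changed, with 7 of 8 tested, 2 higher and none lower in edgeR. None was lower at an unadjusted p under 0.05 in edgeR either. DESeq2 called none lower, with 1 of 8 lower at an unadjusted p under 0.05. Mmp13, the interstitial collagenase of mouse, was at 0.498, 0.884 and 0.130 CPM in the controls and at 13.3, 13.4 and 16.3 CPM in double cKO. Every double cKO library was far above every control (4.47, SE 0.50, adjusted p = 0.000729 by edgeR). With 6, 10 and 2 counts in the controls, Mmp13 passed the filter through its double cKO counts. A call of lower was hardly open to it. Mmp3, stromelysin, was at 1.58, 4.42 and 3.13 against 52.4, 21.6 and 8.45 CPM (3.04, adjusted p = 0.0272 by edgeR). Mmp14 (0.42) and Mmp2 (0.18) did not pass.

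Of 13 matrix partners of collagen, 11 were tested, 2 rose and 2 fell. Sparc, which binds fibrillar and type IV collagen, was at 38.0, 48.2 and 36.2 CPM in the controls and at 79.4, 89.4 and 118 CPM in double cKO (1.16, SE 0.19, adjusted p = 0.00608 by edgeR). Tnxb, tenascin-X, was at 101, 108 and 222 against 348, 404 and 289 CPM (1.2, adjusted p = 0.0284 by edgeR). Fn1, fibronectin, fell from 14.9, 34.6 and 38.7 CPM to 9.85, 6.68 and 12.9 CPM (−1.64, adjusted p = 0.0209 by edgeR). Nid1, which links laminin to type IV collagen, fell from 2.66, 6.89 and 2.47 CPM to 1.38, 0.750 and 1.18 CPM (−1.81, adjusted p = 0.0428 by edgeR). In none of these 4 did the groups overlap.

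Without control replicates 1 and 2, edgeR called 3 of the 62 pathway genes. They were Mmp13 (5.76), Fn1 (−2.02) and P4ha3, a prolyl hydroxylase subunit named after its values were seen (5.73). P4ha3 had no reads in control replicate 3, the only control of that fit, so its 5.73 depends on the prior count. Its level was 2.49 and 1.59 CPM in control replicates 1 and 2, against 3.77, 5.66 and 10.9 CPM in double cKO. With all 6 libraries P4ha3 was at 2.16 and did not pass (adjusted p = 0.1475 by edgeR). The other pathway genes called with all 6 libraries did not pass without control replicates 1 and 2. Of those higher, P3h4 was at 0.99 (edgeR adjusted p 0.0772), Plod3 at 0.83 (0.0999), Plod1 at 0.53 (0.351), Tll1 at 4.11 (0.210), Itgb1 at 0.52 (0.216), Mrc2 at 1.5 (0.103), Mmp3 at 3.02 (0.388), Tnxb at 0.59 (0.177) and Sparc at 1.35 (0.0552). Of those lower, P3h1 was at −0.94 (0.292), Lox at −1.0 (0.473), Itga1 at −1.29 (0.135) and Nid1 at −1.13 (0.311). By limma-voom with all 6 libraries, 5 calls ended: Lox (−2.06, adjusted p 0.0966), Nid1 (−1.72, 0.0802), Tll1 (3.01, 0.0688), Mmp3 (2.78, 0.123) and Itgb1 (0.53, 0.0507). With receptor-gene background subtracted, Nid1 (−1.63, edgeR adjusted p 0.0679) and Itgb1 (0.47, 0.0634) lost the call. With the replicate block, Lox (−1.97, edgeR adjusted p 0.0909), Nid1 (−1.66, 0.102), P3h1 (−1.44, 0.0629) and Mmp3 (2.69, 0.0682) did. Leaving out 1 library at a time ended no call of Plod3, Mrc2, Mmp13 or Sparc. It ended that of P3h4 without double cKO replicate 2 or 3 (0.78 and 0.77, edgeR adjusted p 0.0736 and 0.0609) and of Itga1 without double cKO replicate 1 (−1.48, 0.0598). For Fn1 it ended without control replicate 2 or double cKO replicate 1 or 2 (−1.39 to −1.59, 0.0698 to 0.0905). Lox, Nid1, Plod1 and P3h1 lost the call without any 1 library except control replicate 3, with edgeR adjusted p up to 0.138, 0.165, 0.117 and 0.115. Tll1 lost it without control replicate 1 or 3 or double cKO replicate 1 or 2 (up to 0.189), and Tnxb without control or double cKO replicate 1 or 2 (up to 0.0986). Mmp3 lost it without any control or without double cKO replicate 2 (up to 0.127), and Itgb1 without control replicate 1 or 2 or double cKO replicate 1 or 3 (up to 0.151). In these fits the log2 changes of the 8 genes kept their sign.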

How the data were processed

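RNA of mouse epidermis was sequenced as ribosome-depleted, paired libraries, per the labels' protocols. The submitters' processing notes name Trimmomatic 0.36, STAR 2.5.2b and featureCounts of Subread 1.5.2, and the builds GRCh38 and GRCm38; whether counting used strand is not given in the sources used here. The deposited values are raw counts per gene, per the file headers, and the authors' counts entered all tests unchanged. Of 21 files, 13 with every gene at 0 were not used. Identifiers were named with GENCODE M21, which holds 49056 of the 49315.

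The 3 double cKO and 3 control libraries at 6 months were compared with edgeR 4.0.16 (quasi-likelihood test, TMM factors, filterByExpr, prior count 2), adjusted by Benjamini-Hochberg over all 17755 genes tested, threshold 0.05. CPM and RPKM were computed from all counts. DESeq2 1.42.0, limma-voom (limma 3.58.1) and other filters, scalings and sets of libraries were alternatives. The fit was tested on simulated counts. Members, gene lists and the split were chosen with earlier results of these data known. The text gives each collagen past the threshold or at 10 CPM or more in any library, and up to 4 genes of each other pathway list, those past the threshold first, by level. Marker genes were named after their values were seen. Nothing states that replicates come from separate animals, so p-values measure the spread between these libraries. Sequences are from RefSeq tables (GRCm38.p6), and 9 members had no window in them: Col1a1, Col2a1, Col4a3, Col5a2, Col9a3, Col12a1, Col14a1, Col22a1 and Col26a1.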

Additional observations from a re-analysis of the deposited data

Results flagged for a closer look

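In Tfap2b cKO replicate 1 at 3 weeks, a library outside the 6-month comparison, 19 of the 43 collagens stood above the highest control library at 6 months. Of these, 13 had at least 3 times the CPM of every other library and are given here. Controls of its own age have no counts, so age and genotype differ as well. The fibrillar genes were Col1a1 at 1128 CPM, Col3a1 at 912, Col1a2 at 389, Col5a3 at 308, Col5a1 at 159 and Col5a2 at 90.7 CPM. Basement membrane genes were Col4a1 at 863, Col4a2 at 539 and Col15a1 at 246 CPM. Col6a3 was at 391, Col6a1 at 292 and Col6a2 at 265 CPM, and Col14a1 at 20.3 CPM. The same library had the highest sums of fibroblast, endothelial, pericyte and adipocyte markers of all 8. It was also the highest, by less, for immune genes (517 against at most 491 CPM) and skeletal muscle genes (20.4 against at most 14.5 CPM). No group of 3 libraries can be screened for single outlying values.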

How the results depend on the processing

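Against 7 collagens lower, 2 higher and 2637 genes called in all, the counts were 20, 6 and 4809 with no filter on low counts, 14, 5 and 4018 with DESeq2, and 6, 4 and 1729 with replicate numbers as a block. They were 2 and 0 collagens with all 8 libraries in one fit, and 0, 1 and 437 without control replicates 1 and 2, an alternative chosen after seeing the data. Leaving out 1 library at a time gave 2 to 22 collagens lower, 0 to 4 higher and 668 to 7544 genes in all, highest without control replicate 3. RLE, total-count scaling, the minimum of 10 counts, limma-voom and background subtraction kept the collagen counts within 1.5 times. By total counts, 1327 genes were lower and 1376 higher, against 1526 and 1111.

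Pathway genes lower numbered 5, and 11 with no filter, 9 with DESeq2, 3 with limma-voom, 2 with the replicate block, 1 with all 8 libraries, 1 without control replicates 1 and 2, and 0 to 15 leaving out 1 library. Pathway genes higher numbered 10, and 5 with all 8 libraries, 2 without control replicates 1 and 2, and 5 to 14 leaving out 1. Marker genes lower numbered 3, and 12 with no filter, 8 with DESeq2, 0 without control replicates 1 and 2, and 2 to 23 leaving out 1. Marker genes higher numbered 5, and 3 without the 20 most abundant genes, which include markers, 1 without control replicates 1 and 2, and 4 to 5 leaving out 1.

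None of the 9 collagens called changed direction. Against control replicate 3 alone, log2 fold changes turned to 0.25 for Col11a2, −0.24 for Col20a1, 1.16 for Col4a3, 0.31 for Col4a4, 0.22 for Col5a1, 0.44 for Col5a3, 0.37 for Col8a1, 0.78 for Loxl4, 0.52 for Loxl3 and −0.089 for Ddr1. Without control replicate 2 they turned to 0.011 for Col27a1, 0.058 for Col4a3 and 0.20 for Col8a1, without control replicate 1 to −0.079 for Col20a1 and 0.52 for Loxl4, and without control replicate 3 to 0.019 for Col12a1. Without double cKO replicate 1 they turned to 0.02 for Col12a1, −0.03 for Col20a1 and 0.38 for Col8a1, and without replicate 2 to 0.37 for Col8a1 and 0.18 for Loxl4. With background subtracted before or after the filter, Col4a3 was at 0.070 and 0.072 and Col8a1 at 0.24, Col8a1 was at 0.020 with no filter, and Loxl4 at 0.0013 by limma-voom. The lowest values with 1 library left out were −0.44 for Col12a1, −0.74 for Col27a1, −0.86 for Col4a3, −1.88 for Col8a1 and −0.39 for Loxl4. None of these genes had passed the threshold, and the cause was not tested. With the replicate block, Col11a1 was at −2.98 (adjusted p = 0.0536 by edgeR).

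Same-numbered libraries of the 2 groups had correlations of deviations of 0.027, −0.161 and −0.0588, and differently numbered ones −0.109 to 0.169. Deviations within a group of 3 sum to 0, so these values cannot decide whether the replicate numbers pair the libraries. Of the retained collagens, 22 became 23 at 0.5 CPM and 17 at 2 CPM, and the 13 raised in Tfap2b cKO replicate 1 became 13 and 12 at 2 and 5 times. The 12 untested members together had 30 counts or fewer in each library except control replicates 1 and 2 and Tfap2b cKO replicate 1.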

Other observations

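The ratio of Col4a5 to Col4a6, neighbours on the X chromosome read in opposite directions, was 0.787, 0.755 and 0.843 in counts per kb in the controls and 0.967, 1.12 and 0.991 in the double cKO libraries at 6 months. It was 1.18 and 1.19 in Tfap2b cKO replicates 1 and 2. All 3 controls were below all other libraries, and this was not tested. Ratios of Col4a1 to Col4a2, another head-to-head pair, overlapped between the 6-month groups: 0.953, 0.693 and 0.803 in the controls and 0.551, 0.401 and 1.10 in double cKO. In Tfap2b cKO replicates 1 and 2 that ratio was 1.42 and 0.572. For Col4a3 to Col4a4, also head to head, the ratio overlapped as well, at 0.622, 0.611 and 0.273 in the controls, 0.227, 0.766 and 0.642 in double cKO, and 0.710 and 0.290 in Tfap2b cKO replicates 1 and 2.

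Type I and III collagen took 38.5% of all collagen counts in Tfap2b cKO replicate 1 and 1.94% in replicate 2. Col23a1 was the most abundant collagen by counts in control replicate 1, at 15.9% of collagen counts there, while Col7a1 took 11.9%.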
